A study of Mus musculus with 4 samples.

Results

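Immediate-early response cells were the hematopoietic stem and progenitor cells (HSPCs) in which at least 4 of 6 early stress and growth response genes, Fos, Fosb, Egr1, Dusp1, Nr4a1 and Zfp36, were detected by at least 1 unique molecular identifier (UMI, 1 captured RNA molecule). They were chosen on the measured values of these 6 genes, separately in each pool, among cells whose log total UMI count lay within 2 SD of the mean of their pool. In all, 1473 of 14915 kept cells, or 9.88%, met the rule and are called members here. The remaining 13442 kept cells are called other cells.

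The HSPCs came from the bone marrow of male C57BL/6-CD45.2 mice and were sorted as lineage-negative, Sca1+, cKit+ and Flt3- cells. Young mice were 2 to 3 months old and aged mice 17 to 18 months old. Each age had 2 pools, which held 2 or 3 mice each, so that single mice cannot be separated, and 10x Genomics v2 libraries of each pool were sequenced as UMI counts per gene and cell. The letters A and B name the batch and the facility in which a young and an aged pool were processed, and the pools are named young-A, young-B, aged-A and aged-B. Kept cells numbered 5189 in young-A, 2244 in young-B, 3328 in aged-A and 4154 in aged-B, with total UMI counts of 36446168, 16399999, 20788935 and 33286187. Ages follow the sample titles and source names, as the descriptions given for young-B and for aged-A state the opposite age. Nupr1, a gene of the platelet and aging-associated list, was at 12.8 and 20.7 CPM (UMI counts of a gene per 1000000 UMIs of the same cells) in young-A and young-B and at 372 and 549 CPM in aged-A and aged-B.

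Immediate-early genes are transcribed within minutes of a stimulus such as a growth factor, a cytokine or mechanical and handling stress, from promoters that factors already present in the cell can activate. Fos and Fosb encode subunits of the AP-1 transcription factor, Egr1 and Nr4a1 encode a zinc finger factor and an orphan nuclear receptor, and Dusp1 and Zfp36 encode a phosphatase that switches off MAP kinases and a protein that destabilizes mRNAs of inflammatory genes. In stem cells, Egr1, Nr4a1 and the AP-1 factors are known for their links to quiescence and to activation.

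The upstream sequences of 4 of the rule genes are shown because they carry 1 or more copies of a motif through which such genes are known to respond. It is the CRE core, with the letters TGACG, to which CREB factors bind. The RefSeq promoter table (GRCm38.p6) held 5 of the 6 rule genes, without Egr1. In the 250 bases before the start, either strand, Fos held 2 matches, Fosb 1, Dusp1 3 and Nr4a1 4. The window of Zfp36 overlapped an annotated exon, held no match and is not shown. A CArG box, the binding motif of SRF, was searched too and was found in none of the 4 promoters shown, once in the window of Zfp36 and in 1.47% of all promoters. A match was present in 17.8% of 32851 promoters of the same length. The full palindrome TGACGTCA, which holds 2 overlapping cores, was present in 1.55% of promoters and once in that of Dusp1. The sequences below run 5′ to 3′ on the strand of the gene, with bases of annotated exons left out and TGACG or its reverse complement CGTCA in capitals. Fos lies at chr12:85473640-85473889 on the plus strand, Fosb at chr7:19310052-19310295 on the minus strand, Dusp1 at chr17:26508520-26508722 on the minus strand, and Nr4a1 at chr15:101266596-101266845 on the plus strand.
Fos: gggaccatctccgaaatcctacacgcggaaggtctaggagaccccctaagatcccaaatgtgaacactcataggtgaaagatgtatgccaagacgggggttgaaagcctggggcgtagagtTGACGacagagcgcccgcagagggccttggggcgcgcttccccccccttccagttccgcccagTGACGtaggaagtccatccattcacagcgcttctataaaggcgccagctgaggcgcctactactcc
Fosb: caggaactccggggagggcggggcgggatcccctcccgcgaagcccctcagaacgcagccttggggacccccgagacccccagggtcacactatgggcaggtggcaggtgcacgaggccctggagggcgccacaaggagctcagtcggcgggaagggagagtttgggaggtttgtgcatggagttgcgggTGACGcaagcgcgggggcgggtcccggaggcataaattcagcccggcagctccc
Dusp1: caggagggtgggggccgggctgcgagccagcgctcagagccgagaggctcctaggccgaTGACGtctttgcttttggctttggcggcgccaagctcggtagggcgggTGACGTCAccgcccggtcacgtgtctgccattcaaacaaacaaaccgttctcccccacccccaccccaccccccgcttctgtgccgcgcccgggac
Nr4a1: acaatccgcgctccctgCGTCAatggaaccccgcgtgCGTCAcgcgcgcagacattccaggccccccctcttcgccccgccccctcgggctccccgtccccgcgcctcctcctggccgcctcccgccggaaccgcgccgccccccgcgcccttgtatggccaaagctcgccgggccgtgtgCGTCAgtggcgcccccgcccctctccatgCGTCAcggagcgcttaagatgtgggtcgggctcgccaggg

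In the GENCODE annotation of GRCm38, Fos (ENSMUSG00000021250) spans chr12:85473890-85477273 and Fosb (ENSMUSG00000003545) spans chr7:19302696-19310051. Egr1 (ENSMUSG00000038418) spans chr18:34859823-34864984 and Dusp1 (ENSMUSG00000024190) spans chr17:26505590-26562128. Nr4a1 (ENSMUSG00000023034) spans chr15:101254269-101274795 and Zfp36 (ENSMUSG00000044786) spans chr7:28376784-28380253. The sequence windows of Dusp1 and Nr4a1 lie within these spans, which include longer transcripts of the same genes. The matches describe letters only, and no binding was measured.

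Members were far from evenly spread over the pools. They made up 4.97% of kept cells in young-A (258 cells, exact 95% binomial interval 4.40 to 5.60%) and 0.357% in young-B (8 cells, 0.154 to 0.701%). The share was 32.4% in aged-A (1078 cells, 30.8 to 34.0%) and 3.11% in aged-B (129 cells, 2.60 to 3.68%). Aged-A thus held 73.2% of all members and stood apart from the other 3 pools, and the share in aged-B lay below that in young-A, so the ages overlapped. Intervals cover counting error within a pool only.

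**Figure D1:**
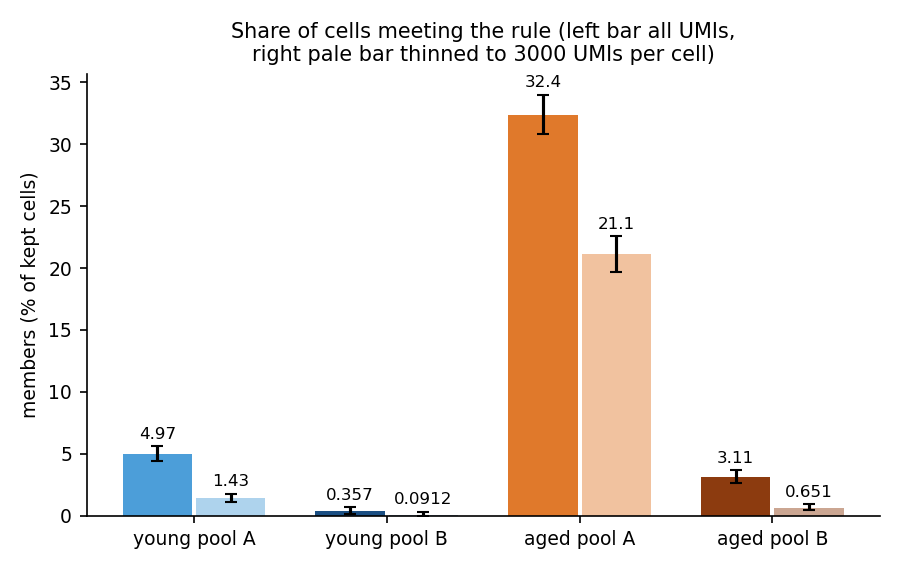
Members as a percentage of the kept cells of each pool, with exact 95% binomial intervals as error bars. The full bars use all UMIs and the pale bars use cells thinned to 3000 UMIs, and aged-A reached 32.4% and 21.1% while no other pool passed 4.97%.

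The mean share was 2.66% ± 3.26 (SD, n = 2 pools) in young and 17.7% ± 20.7 (SD, n = 2 pools) in aged pools. A two-sided exact permutation test of 2 against 2 pools gave p = 0.667, where the smallest p this design allows is 0.33. Within each letter the aged pool had the higher share, 6.52 times that of the young pool in A and 8.71 times in B. Without aged-A the mean difference between ages was 0.441 percentage points in place of 15.1. The permutation test did not use the pairing of pools by letter.

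Depth moved with membership in 3 of 4 pools. The median UMI count was 6929 in members and 6032 in other cells of young-A, 6728.5 and 5207.5 in aged-A, and 10594 and 6659 in aged-B, while the 8 members of young-B had a median of 4533 against 6286. With every cell thinned to 3000 UMIs, which left out 0, 50, 176 and 4 shallower cells of young-A, young-B, aged-A and aged-B, the shares were 1.43%, 0.0912%, 21.1% and 0.651%. The order of the pools did not change. The median share of mitochondrial UMIs was close in members and other cells, at 3.08% and 3.06% in young-A, 3.35% and 3.33% in aged-A, and 3.10% and 3.04% in aged-B. In young-B it was 3.16% and 2.73%.

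The number of rule genes per cell set aged-A apart at both ends of its range, but not in the middle, where 20.8% of cells in aged-A and 20.7% in young-A held 2 genes. No rule gene was detected in 32.7% of cells in young-A, 67.7% in young-B and 49.2% in aged-B, but in only 11.2% in aged-A. All 6 genes were detected in 9.65% of cells in aged-A (321 cells), in 10 and 5 cells of young-A and aged-B, and in 0 cells of young-B. Among members, 5 or 6 genes were present in 63.3% in aged-A, 29.1% in young-A and 27.1% in aged-B.

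**Figure D2:**
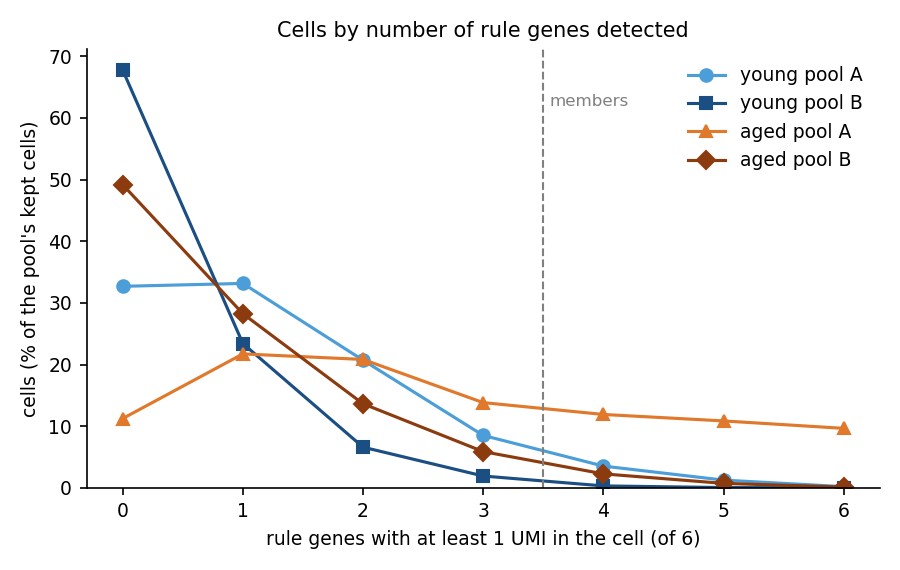
Percentage of the kept cells of each pool (y axis) by the number of the 6 rule genes with at least 1 UMI (x axis). The dashed line marks the border of membership, and aged-A kept 9.65% of its cells at 6 genes while the other pools were near 0.

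Members of aged-A also held more molecules of these genes per cell. The median member there had 26 UMIs of the 6 genes together, against 9 in young-A, 11 in aged-B and 6 in young-B, and the median other cell had 2, 1, 0 and 0 in the same order. Members took 83.5% of all UMIs of the 6 genes in aged-A, 31.0% in young-A, 28.3% in aged-B and 3.57% in young-B. In the other pools most molecules of these genes therefore lay in cells below the threshold. Since these values chose the members, they are given as a description.

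The gene most often missing from members was Nr4a1 or Fosb. Fos was detected in 93.0% of members in young-A, 87.5% in young-B, 98.6% in aged-A and 98.4% in aged-B. Nr4a1 was detected in 41.1%, 12.5%, 65.8% and 51.2% of members, and Fosb in 54.7%, 37.5%, 75.4% and 20.2%. Fosb was thus found more often in members of the A pools than in those of aged-B. Fos was also detected in many other cells, in 23.8%, 16.4%, 52.98% and 19.9% of them in young-A, young-B, aged-A and aged-B.

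Free RNA in the droplets can add UMIs to cells that do not transcribe a gene. Igkc, an immunoglobulin gene that stem cells are not known to use, served as a comparison. It was detected in 32.1%, 21.4%, 96.0% and 40.3% of other cells in young-A, young-B, aged-A and aged-B, with aged-A again the highest. Within aged-A, Igkc was detected in 97.6% of members. The part of free RNA in the shares was not tested. The pools shared between 10 and 29 cell barcodes pairwise, and 1 shared barcode was a member in both pools, aged-A and aged-B.

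At the border of membership, cells with 3 and cells with 4 rule genes were compared as values only. Summed CPM of the 6 genes were 674 with 3 genes and 1339 with 4 in young-A, 1074 and 2359 in aged-A, and 630 and 1116 in aged-B. Junb, an AP-1 subunit outside the rule, had 200 and 379 CPM in young-A, 260 and 512 in aged-A, and 208 and 453 in aged-B. No gap in the number of cells marked this border, with 441 and 183 cells at 3 and 4 genes in young-A, 460 and 396 in aged-A, and 244 and 94 in aged-B.

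To read each rule gene without using it for the choice, cells were chosen again by at least 3 of the other 5 genes, and the left-out gene was compared between these cells and the rest with edgeR's quasi-likelihood test on sums per pool, with pool as a block and Benjamini-Hochberg adjustment over all genes tested. Each of the 6 left-out genes was higher in the chosen cells in 4 of 4 pools and passed the threshold of 0.05. Fos was at 470.1 against 62.6 CPM in young-A, 402 against 48.1 in young-B, 1860 against 234 in aged-A and 558 against 57.2 in aged-B, a log2 fold change of 3.00 ± 0.11 (SE, adjusted p = 2.17e-14). The groups of values did not overlap, although those of the other cells of aged-A came closest. In that fit 2.75% of genes were called.

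With at least 3 of the other 5 genes required, Nr4a1 had the largest change of the 6. With at least 4 required it was below Fos, at 3.01 against 3.24, where Fos was fitted in 3 pools. At the cut of 3, Nr4a1 had a log2 fold change of 3.22 ± 0.14 (edgeR, adjusted p = 2.34e-08) where 2.05% of genes were called. Its values were 42.5 against 4.07 CPM in young-A, 2.30 against 1.25 in young-B, 189 against 17.8 in aged-A and 37.7 against 4.39 in aged-B. The rise was small in young-B, in which 49 cells were chosen. Zfp36 changed by 2.18 ± 0.11 (adjusted p = 1.03e-10, 2.79% of genes called) and Dusp1 by 2.17 ± 0.11 (adjusted p = 6.03e-09, 1.97% called). Both feedback genes therefore moved with the transcription factors. Fosb changed by 1.95 ± 0.12 (adjusted p = 5.12e-06, 1.7% called) and Egr1 by 1.61 ± 0.16 (adjusted p = 4.86e-05, 1.83% called). Egr1 reached 101 against 48.8 CPM in young-A, 27.7 against 4.74 in young-B, 221 against 51.0 in aged-A and 88.7 against 32.4 in aged-B.

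The next comparison asked what else members expressed. Beyond the 6 rule genes, members had higher levels of most other immediate-early genes and lower levels of mitosis genes than the other cells of their own pool. Of 12142 genes tested over 8 sums (members and others of 4 pools, pool as a block, edgeR), 134 were higher, or 1.1%, and 146 lower, or 1.2%, at an adjusted p under 0.05. In the lists of other AP-1 subunits, other immediate-early transcription factors and feedback inhibitors, 33 of 46 tested genes were higher and 0 lower, with a median log2 fold change of 1.28 against -0.02 over all genes tested. These lists were drawn up with earlier results known. All 46 were higher in members in aged-A, 41 in young-A, 40 in aged-B and 19 in young-B, whose members summed to 52239 UMIs. Over all genes tested, 57.0%, 51.9%, 45.5% and 34.9% were higher in members of these pools.

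Without aged-A, 59 genes were higher and 31 lower, 85 of these 90 genes were among the 280 called with it, and 25 of 44 genes of the 3 immediate-early lists were higher and 0 lower, with a median of 0.99. Without pool as a block, 0 genes passed and 296 had an unadjusted p under 0.05, while DESeq2 called 64 higher and 29 lower. With 618 calls without aged-B, the number of calls depended on single pools, and the median of the 3 immediate-early lists ranged from 0.99 to 1.43 with any pool left out.

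Among AP-1 subunits, 6 of 9 tested genes were higher in members. Junb was at 453 against 106 CPM in young-A, 249 against 55.0 in young-B, 908 against 166 in aged-A and 486 against 107 in aged-B, a log2 fold change of 2.19 ± 0.10 (edgeR, adjusted p = 1.61e-11, higher in 4 of 4 pools). Jun, its classical partner of Fos, was at 1081 against 404, 306 against 140, 2156 against 479 and 833 against 339 CPM in the same order and changed by 1.53 ± 0.14. The lowest member value of Jun, in young-B, lay below the other cells of the remaining pools, so pools overlapped across classes although each pool moved up. Atf3, a stress-induced partner of Jun, changed by 3.99 ± 0.25, at 4.92 against 0.232, 0 against 0.122, 70.8 against 5.76 and 23.3 against 0.753 CPM. Its 8 member cells in young-B held no Atf3 molecule. Jund, Maff and Fosl2 also rose, by 1.64, 1.35 and 1.02, each in 3 of 4 pools. Batf, Fosl1 and Mafk did not pass, with 0.02, 0.69 and 0.37.

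Jund differed between letters in all cells. Its level in members was 634 CPM in young-A and 2112 in aged-A, but 0 in young-B and 34.6 in aged-B. The other cells were at 252 and 384 CPM in the A pools and at 13.5 and 17.3 CPM in the B pools. Klf2 and Ier5 showed a like split, with other cells at 13.9 and 44.0 CPM of Klf2 in the A pools against 1.47 and 1.25 in the B pools. The cause of this split was not tested.

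Of the other immediate-early transcription factors, 12 of 14 tested were higher in members and 0 lower. Klf4, Klf2 and Klf6, zinc finger factors of the Krüppel family, changed by 3.34 ± 0.23, 2.81 ± 0.13 and 1.67 ± 0.14. Klf4 was at 15.2 against 2.56 CPM in young-A, 0 against 1.41 in young-B, 126 against 8.41 in aged-A and 9.17 against 1.07 in aged-B. Klf6 was at 129 against 39.4, 57.4 against 32.0, 252 against 54.0 and 98.1 against 43.0 CPM in the same order, higher in 4 of 4 pools. Nr4a2, a close relative of Nr4a1, changed by 3.11 ± 0.18, with 15.7 against 2.94 CPM in young-A, 0 against 0.918 in young-B, 103 against 10.8 in aged-A and 52.2 against 4.52 in aged-B. The Id genes, inhibitors of basic helix-loop-helix factors, rose by 3.04 for Id3, 2.59 for Id1 and 0.63 for Id2. Ier2 was higher in 4 of 4 pools, at 710.3 against 257 CPM, 479 against 119, 1142 against 303 and 643 against 211, a change of 1.64 ± 0.10. Myc and Srf did not pass, with -0.07 and 0.14.

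Of the feedback inhibitors, which damp the signal that induced them, 15 of 23 were higher and 0 lower. Btg2, an antiproliferative gene, was at 168 against 44.7 CPM in young-A, 57.4 against 12.7 in young-B, 303 against 26.9 in aged-A and 154 against 19.1 in aged-B, a change of 2.75 ± 0.19. Ppp1r15a, which encodes a regulator of eIF2 alpha phosphatase, was at 165 against 55.5, 153 against 22.9, 253 against 57.4 and 130 against 40.7 CPM and changed by 1.81 ± 0.11. Both genes were higher in 4 of 4 pools. The phosphatase genes Dusp5 and Dusp2 rose by 1.87 and 1.10, the cytokine signal inhibitor Socs3 by 1.78, and the NF-kappaB inhibitors Nfkbiz, Tnfaip3 and Nfkbia by 1.49, 1.34 and 0.44. Genes that did not pass included Gadd45g (0.41), Dusp4 (0.86), Socs1 (0.35) and Zfp36l2 (0.22), the most abundant gene of the list.

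**Figure D3:**
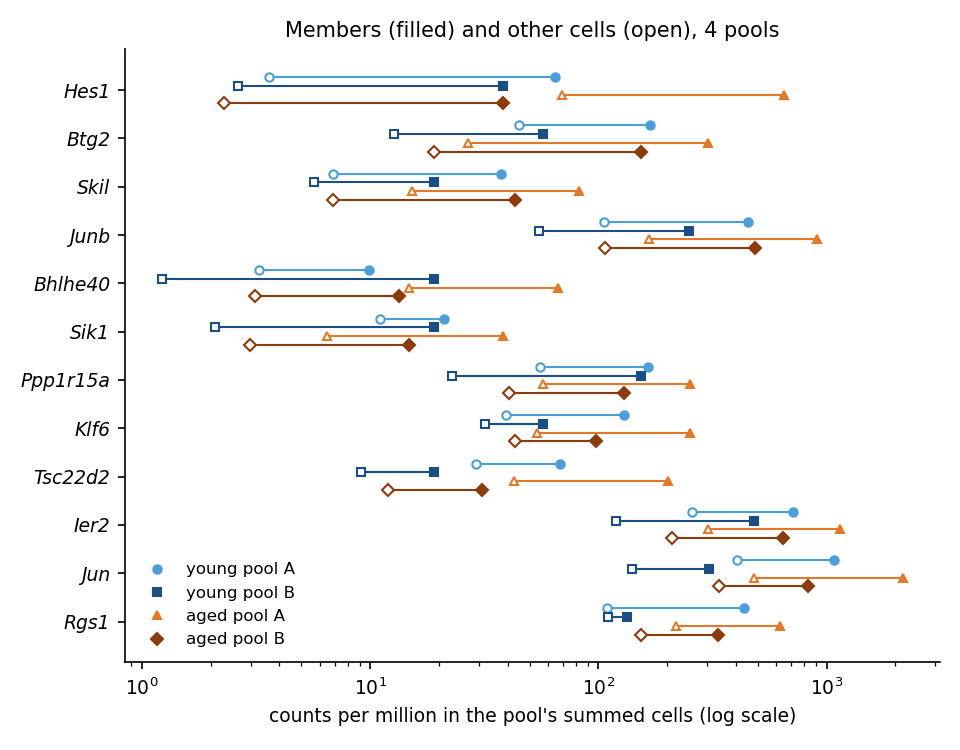
Levels in CPM (log axis) of the 12 genes with the largest rise among those higher in members in every pool, with members as filled and other cells as open symbols and 1 line per pool. Each of the 12 genes lay higher in members in 4 of 4 pools, and Hes1 in aged-A was at 650 against 69.4.

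Outside these lists, Hes1 had the largest rise of the genes higher in every pool. Hes1, a target of Notch and other signals (ENSMUSG00000022528, chr16:30064384-30067796), was at 64.4 against 3.60 CPM in young-A, 38.3 against 2.63 in young-B, 650 against 69.4 in aged-A and 38.1 against 2.29 in aged-B. Its log2 fold change was 3.64 ± 0.16. The other cells of aged-A reached the level of members elsewhere. Skil, a repressor of TGF-beta signalling that is itself a target of it, was at 37.4 against 6.89, 19.1 against 5.69, 82.5 against 15.2 and 43.0 against 6.90 CPM, a change of 2.45 ± 0.14. Bhlhe40, Sik1 and Tsc22d2 rose by 2.00, 1.90 and 1.65 and were higher in 4 of 4 pools. Rgs1, a gene of the feedback inhibitor list, rose by 1.42 and was also higher in 4 of 4 pools.

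Stress and signalling lists moved in part. Of the heat shock genes, 2 of 11 rose, Hspa1a by 1.42 and the cochaperone gene Dnajb1 by 0.91, with a list median of -0.01, and Hsp90ab1, the most abundant, had -0.09. Of the unfolded protein and integrated stress response genes, 3 of 9 rose (Dnajb9 0.59, Hspa5 0.54, Atf4 0.49; median 0.42). Of TGF-beta targets and signalling genes, 3 of 10 rose, namely Cyr61 by 3.39, Skil and Smad7 by 1.70, with a median of 0.07. Of p53 targets and cell cycle inhibitors, 3 of 10 rose, with a median of 0.08. Cdkn1a, the inhibitor p21, was at 19.2 against 6.71 CPM in young-A, 0 against 10.1 in young-B, 132 against 13.2 in aged-A and 53.6 against 14.5 in aged-B, a change of 2.32 ± 0.24. Among 4 tested cytokine and chemokine genes, Ccl4 rose by 1.03, and of the 10 interferon-stimulated genes 0 passed in either direction (median -0.04).

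Mitosis genes were lower in members, with 11 of 11 called lower and a median of -1.13. Summed over the list, members and other cells were at 470 and 633 CPM in young-A, 0 and 517 in young-B, 166 and 370 in aged-A, and 89.6 and 420 in aged-B. Mki67, a marker of cycling cells, was at 34.4 against 45.7, 0 against 34.0, 11.1 against 28.6 and 4.23 against 30.3 CPM, and changed by -1.22 ± 0.22. The fall was smallest in young-A. Without aged-A, 6 of 11 passed, with a median of -1.08, and with no filter on cells by UMI 1 of 11 passed (median -0.86). Of 11 DNA replication genes, 1 fell (Uhrf1, -0.68), and 7 of the 11 were higher in members of young-A while all 11 were lower in the other pools.

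**Figure D4:**
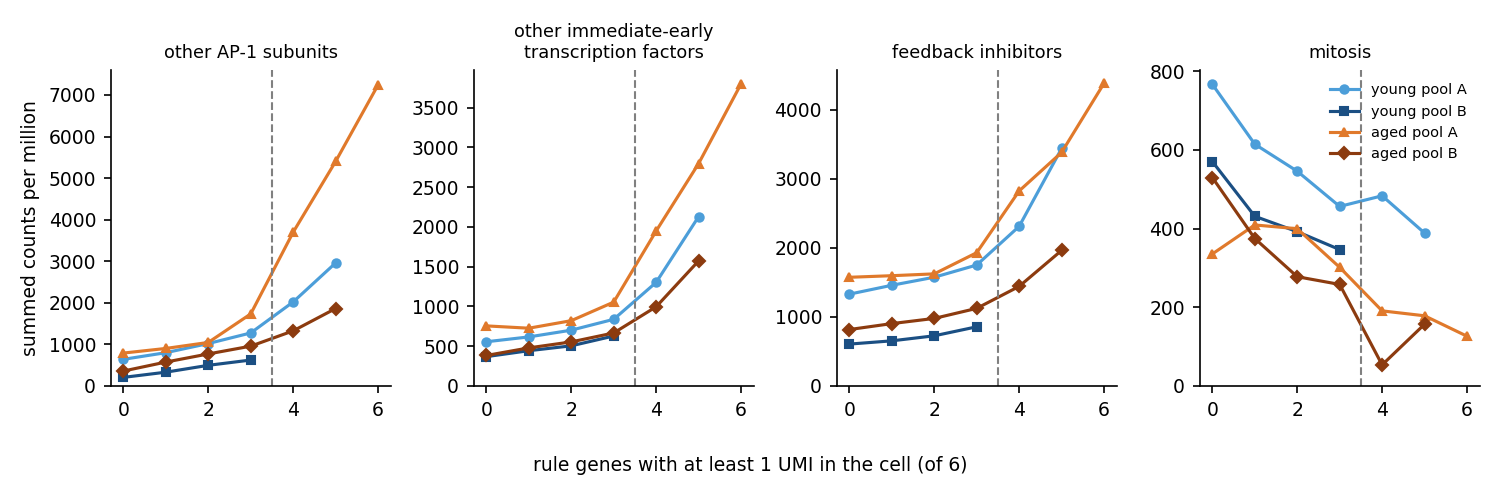
Summed CPM of the genes of 4 lists (y axes) in cells grouped by the number of rule genes detected (x axis), for groups of at least 20 cells in each pool. In aged-A, from 0 to 6 rule genes, the other AP-1 subunits went from 791 to 7242 and the mitosis list from 335 to 126.

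The other AP-1 subunits increased with the number of rule genes in each pool. In aged-A, the summed level of the other AP-1 subunits was 791 CPM in cells with 0 rule genes, 1732 with 3, 3699 with 4 and 7242 with 6. In young-A it was 640 CPM with 0, 1274 with 3 and 2959 with 5, and in aged-B it was 358, 957 and 1862. The mitosis list did not fall at every step. In aged-A it was at 335 CPM with 0 rule genes, 409 with 1, 301 with 3 and 126 with 6, and in aged-B at 530 with 0, 53.5 with 4 and 157 with 5. Cells with more rule genes also had more UMIs, at a median of 4353.5 with 0 and 7307 with 6 in aged-A. The part of depth in this grouping was not tested.

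Of 14 HSC identity genes, 1 passed (Txnip, 0.38, higher in 4 of 4 pools), with a median of 0.15 against -0.02 over all genes tested. Higher levels in members were seen for 14 of the 14 in young-A, 11 in young-B, 11 in aged-A and 12 in aged-B, and in all 4 pools for 8 (57.1%), against 7.97% of all genes tested. The summed list was at 1390.0 CPM in cells with 0 rule genes and 2051 with 5 in young-A, 2544 and 3032 in aged-A, and 1851 and 2102 in aged-B, while in young-B it was 1367 with 0 and 1391 with 3. Procr, which encodes the surface marker EPCR, had 0.30 ± 0.09 without passing. The sort markers were present in both classes. Ly6a, which encodes Sca1, was at 176 CPM in members and 163 in other cells of young-A, 153 and 254 in young-B, 236 and 230.2 in aged-A, and 421 and 352 in aged-B. Kit was at 104 and 99.0, 19.1 and 75.1, 158 and 167, and 79.7 and 71.3 CPM in the same order. Flt3, the marker sorted against, was at 47.7 and 48.0, 19.1 and 14.99, 10.6 and 10.5, and 3.53 and 2.35 CPM, and differed more between pools than between classes.

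Most tested markers of erythroid cells, neutrophils and mast cells were called lower in members. Of 9 progenitor genes, with a list median of -0.41, 2 were called lower. These were Cd48, by 0.83, and Plac8, by 0.78. Of the 9 progenitor genes, 0 were higher in members in young-A, 1 in young-B, 3 in aged-A and 5 in aged-B. Of erythroid genes 6 of 8 fell, of neutrophil genes 4 of 5 and of mast cell and basophil genes 3 of 5. The last include Mcpt8, at -1.44, which turned to 0.13 with at least 3 rule genes. Hba-a1, an alpha globin gene, was at 0.492 against 6.71 CPM in young-A, 0 against 257 in young-B, 3.27 against 36.6 in aged-A and 2.12 against 61.97 in aged-B, a change of -3.89 ± 0.21. Single other cells held much of Hba-a1, with 422 of 470 UMIs in 1 other cell of aged-A. Without the richest other cell of each pool, other cells were at 2.70, 59.9, 3.74 and 30.6 CPM in the same order. Elane, a neutrophil granule protease gene, was at 22.6 against 126, 38.3 against 199, 43.8 against 254 and 44.5 against 49.9 CPM and changed by -1.95 ± 0.27. Of the platelet and aging-associated genes 2 of 11 rose (Sult1a1, 0.53, and Selp, 0.44). Of the megakaryocyte genes 1 of 7 fell (Pf4, -1.28), of the plasma cell genes 1 of 7 (Igha, -1.81, which turned to 1.70 with at least 3 rule genes) and of T and innate lymphoid genes 1 of 5 (Nkg7, -0.79). Among monocyte and macrophage, B cell, endothelial and stromal genes, 0 of 7, 4, 5 and 1 passed. Summed over the plasma cell list, members were at 107 CPM and other cells at 606 in young-A, 57.4 and 475 in young-B, 2328 and 6610 in aged-A, but 11441 and 1858 in aged-B. In aged-B the B cell and neutrophil lists were also higher in members, at 89.6 against 51.4 and 1520 against 1426.5 CPM. The endothelial list was higher in members in 4 of 4 pools, at 198 against 172 CPM in young-A, 191 against 152 in young-B, 266 against 197 in aged-A and 153 against 138 in aged-B. The monocyte and macrophage list was also higher in each pool, at 409 against 374, 498 against 469, 451 against 440.0 and 562 against 493 CPM in the same order. These are sums over lists in which Eng and Lyz2 were the most abundant genes. By single genes, 1 of 5 endothelial and 0 of 7 monocyte and macrophage genes tested were higher in all 4 pools. Of the latter, 4, 2, 3 and 4 were higher in members in the same order of pools. Pax5 of the B cell list and Col3a1, Lepr and Pdgfra of the stromal list were at 0 in all members.

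Age was compared within members in young-A, aged-A and aged-B only, since the 8 members of young-B fell short of 10 cells. The fit therefore had no block, and age could not be told apart from the difference between young-A and the other pools. Of 10610 genes tested with edgeR, 108 were higher in aged members (1.02%) and 39 lower (0.368%). With young-B kept, 0 genes passed, with 360 at an unadjusted p under 0.05 with the replicate block and 349 without. DESeq2 on the 3 pools called 46 higher and 3 lower. The fit had 1 residual degree of freedom, and edgeR took the spread of every gene wholly from the trend across genes, so these p-values rest on that trend.

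Within these limits, platelet and aging-associated genes stood higher in both aged pools. Of 11 genes 9 rose, with a median of 3.59 against 0.01 over all genes tested. Nupr1, a stress-induced chromatin factor, was at 14.3 CPM in members of young-A, 394 in aged-A and 637 in aged-B, a log2 change of 5.30 ± 0.88. Clu and Selp, which encode clusterin and P-selectin, were at 7.87 and 5.90, 175 and 125, and 257 and 104 CPM in these pools. Over whole pools 10 of the 11 genes passed, with a median of 3.10. The progenitor genes Flt3, Cd48 and Cd52 fell by 2.62, 2.34 and 1.87 on the log2 scale, and 4 of 6 mast cell and basophil genes and 3 of 11 mitosis genes also fell. Part of the mast cell molecules of young-A lay in single cells. Mcpt8, a basophil protease gene, was at 685 CPM there, or 381 without the cell that held 621 of its 1392 UMIs, against 202 in aged-A and 28.9 in aged-B. Gzmb, a granzyme gene, was at 35.4 CPM in young-A, or 5.42 without 1 cell, and at 0 in both aged pools.

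Of the other immediate-early genes, 5 of 45 tested were called higher in members of the 2 aged pools than in those of young-A and 0 lower, with a median of 0.37. With young-B kept, 0 of 44 passed. The young side was 1 pool, so the spread came from the aged pools and the trend across genes. They were Atf3 (4.92, 70.8 and 23.3 CPM in young-A, aged-A and aged-B), Klf4 (15.2, 126 and 9.17), Nr4a2 (15.7, 103 and 52.2), Gadd45g (9.84, 104 and 84.7) and Socs3 (14.8, 112 and 38.8). Klf4 was lower in aged-B than in young-A, so its call rests on aged-A. Cdkn1a was at 19.2, 132 and 53.6 CPM and rose by 2.30 ± 0.63 (edgeR, adjusted p = 0.027). Jun, Junb and Ier2 did not pass, with 0.48, 0.66 and 0.37 and standard errors of 0.84, 0.72 and 0.76.

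Immunoglobulin genes were called higher in members of the aged pools, and single cells held much of several of them in both. Of 7 plasma cell genes 6 were called higher, but Jchain and Ighm turned from 5.44 and 5.15 to -1.24 and -0.95 when cells were not filtered by UMI, and to -0.64 and -1.98 with at least 3 rule genes, 4 pools and the replicate block. Igkc, which encodes an antibody light chain, was held by 1052 of 1078 members of aged-A, and its level there was 1471 CPM with and 859 CPM without its richest cell, against 69.8 CPM in young-A. Igha, an antibody heavy chain gene, was held by 772 members of aged-A with at most 6 UMIs in a cell. This was 71.6% of members, against 69.1% of the other cells of aged-A. Ighg2b, which encodes an antibody heavy chain, was at 0, 246 and 1892 CPM in members of young-A, aged-A and aged-B. In aged-B 2 of 129 members held it, and 1 cell held 2680 of its 2681 UMIs. Without that cell the level was 0.713 CPM. In aged-A 1 cell held 1515 of 1953 UMIs, the level was 55.2 CPM without it, and 336 members held at least 1 UMI. Those were 31.2% of members, against 28.5% of the other cells of aged-A. Ighm, another heavy chain gene, was at 252 CPM in aged-A and at 84.4 without the cell that held 1329 of its 1998 UMIs. Igkc fell from 8180 to 3515 CPM in aged-B when its richest cell was left out.

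The age difference in members minus that in other cells was tested with an interaction term over 8 sums. Of 12820 genes, 4 had a positive term (0.0312%) and 4 a negative one (0.0312%), the sign being that of the log2 aged to young difference in members minus the same difference in other cells. Btg2 was the only one of 50 genes of the 3 immediate-early lists among them, with a term of 1.35 ± 0.26 on the log2 scale (edgeR, adjusted p = 0.0249). In its own pools, members exceeded other cells by 168 against 44.7 and 57.4 against 12.7 CPM in young-A and young-B, and by 303 against 26.9 and 154 against 19.1 in aged-A and aged-B. The remaining 7 genes rested on few cells. DESeq2 called 1 gene, which was in none of the 3 immediate-early lists, and 0 passed with a platform by class term. Btg2 was also not called without the UMI filter, with at least 5 rule genes, after thinning or with any pool left out. Without aged-A the median term of the immediate-early lists was -0.05, against 0.21 with all pools. Without young-A, where the young members were the 8 cells of young-B, it was 6.65, against 3.295 over all genes tested.

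Over whole pools, with no choice of cells, the 6 rule genes were highest in aged-A. Fos was at 95.0 CPM in young-A, 49.3 in young-B, 888 in aged-A and 83.7 in aged-B. Dusp1 was at 65.4, 13.5, 433 and 43.8 CPM, and Nr4a1 at 9.60, 1.28, 105 and 8.08. Aged-B was below young-A for each of these 3 genes, so the levels of the ages overlapped. In whole pools, more cells with a gene and more molecules per cell cannot be told apart from the level alone.

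**Figure D5:**
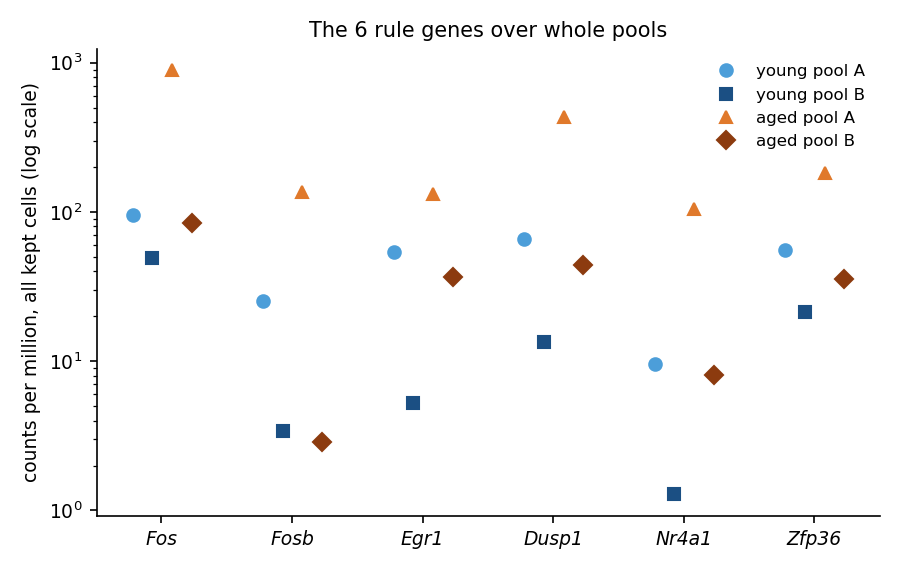
CPM over all kept cells (log axis) of the 6 rule genes in the 4 pools. Aged-A was highest for each gene, with Fos at 888 against 83.7 in aged-B, and aged-B lay below young-A for each gene.

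With the letter as a block, 212 of 13555 genes were higher in aged pools (1.56%) and 56 lower (0.413%). Dusp1 and Nr4a1 passed with log2 fold changes of 2.17 ± 0.27 (edgeR, adjusted p = 0.0368) and 3.04 ± 0.23 (adjusted p = 0.017). Egr1, Fos, Zfp36 and Fosb did not pass, with 1.96 ± 0.43, 1.95 ± 0.60, 1.18 ± 0.24 and 1.14 ± 0.63. All 6 genes were higher in aged-A than in young-A. In the B pools 5 of 6 were higher in aged-B than in young-B, and Fosb was at 2.88 against 3.42 CPM. Of 49 other immediate-early genes tested, 6 rose (Atf3, Id3, Nr4a2, Dusp4, Gadd45g and Socs3) and 0 fell, with a median of 0.99 against 0.01 over all genes tested. In aged-A 45 of the 49 were higher than in young-A, and in aged-B 36 were higher than in young-B. Across all genes tested, 8380 and 6673 of 13555 were higher in these pairs.

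With all pools kept but no block, 0 genes passed, with 1131 at an unadjusted p under 0.05. The median of the immediate-early lists was then 0.996, against 0.99 with the block. Fits that left out a pool had no block either, so a loss of calls in them cannot be credited to that pool. Without aged-A the median was 0.10, and without aged-B it was 1.501. The fit without aged-A compared aged-B with both young pools. Against young-B alone, 36 of 49 of these genes were higher in aged-B. With all pools and the block, DESeq2 called 371 higher and 172 lower.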

How the data were processed

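HSPCs of 2 young and 2 aged mouse pools were profiled by single-cell RNA sequencing. The authors made the deposited count matrices, which give unnormalized UMI counts of each gene in each barcode, with Cell Ranger 2.2.0 on GRCm38 (mm10), per the submitters' processing notes and their methods. The matrices list the barcodes of each pool with no cell type column.

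Cells were kept when their log total UMI count was within 2 SD of the pool mean, and members were cells with at least 4 of 6 genes. The members, the 25 gene lists and the tests were chosen with earlier results of these data known. Doublets were not removed, and the tenth of cells with the most UMIs was left out in an alternative. Counts were summed per pool and class and tested with edgeR 4.0.16 in R 4.3.3 (TMM scaling, filterByExpr, quasi-likelihood test, Benjamini-Hochberg at 0.05), with the 6 rule genes left out of the member tests. The bias-adjusted dispersion of edgeR was chosen after seeing the data, because the default gave an infinite prior in the 3 comparisons on member sums, as this choice also did for age within members (1 residual degree of freedom). Pools were used as the replicates. Members against other cells and age by class had pool as a block. Their p-values rest on how the class difference varied between pools. Age over whole pools had the letter as a block, and its p-values rest on how the age difference varied between letters. Its fits that left out a pool had no block. Age within members used 3 pools, and its spread came from the trend across genes. The letters mark shared batches in the study's methods, and deviations from the age mean of same-letter pools had a correlation of 0.609 over 8415 genes. DESeq2 1.42.0, other scaling, cell and gene filters, thresholds of 3 and 5 genes, thinning to 3000 UMIs and leaving out each pool were alternatives. Each test was tested on simulated data.

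Named genes were the 6 rule genes, genes of the 3 immediate-early lists, per test up to 12 higher and 8 lower genes of at least 20 CPM that moved the same way in all pools or on both platforms, and of other lists the most abundant and called genes. Ly6a, Kit, Procr and the genes in few cells were added after their values were seen. Python 3.11.15 with numpy 2.4.6, scipy 1.17.1, pandas 2.3.3 and matplotlib 3.10.9 was used. Young-B had the fewest members, 8 cells that summed to 52239 UMIs. A result for a progenitor gene in the age comparison is not reported here.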

Additional observations from a re-analysis of the deposited data

Results flagged for a closer look

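The age change differed between members and other cells for 8 genes by edgeR's interaction term, and each is given with its log2 term and the cells behind it. Btg2, with 1.35, was present in 101 of 258 members of young-A, 594 of 1078 of aged-A and 60 of 129 of aged-B. Btg2 was not called with DESeq2, without the UMI filter or with any pool left out. The other 7 genes rested on few cells, and the terms of genes at 0 in some members depend on the prior count and are no bound. Gzmb (-9.70) was at 35.4 CPM in members of young-A, where 1 cell held 61 of 72 UMIs, and at 0 in members of the other pools. Ccl6 (-4.21) had 81 of 86 UMIs of young-A members in 1 cell, and Lgals3 (-2.85) 34 of 49. Ccl3 (-2.24) had 109 of 182 UMIs in 1 cell of the same pool, with 23 members holding it. Prg2 (5.84) had 385 of 614 UMIs of aged-A members in 1 cell and 22 of 23 in 1 cell of aged-B. Among other cells, 1 cell held 1435 of its 1913 UMIs in young-A and 1 cell held 1331 of 1394 in young-B. Without these cells, Prg2 in other cells fell from 55.6 to 13.9 CPM in young-A and from 85.3 to 3.86 in young-B. Prg3 (10.43) had 42 of 65 UMIs in 1 cell of aged-A members and was at 0 in members of the other pools. Dntt (5.84) had 9 UMIs in 1 cell of aged-B and 3 or fewer in the members of any other pool.

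Barcodes outside the UMI range, which entered no comparison above, also met the rule of 4 of 6 genes. These were 28 of 242 dropped barcodes in young-A, 0 of 93 in young-B, 79 of 139 in aged-A and 33 of 177 in aged-B, or 140 of 651 in all (21.5%). The share was again highest in aged-A, at 56.8%.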

How the results depend on the processing

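The mean age difference in the share of members stayed positive in every alternative, between 0.441 and 29.7 percentage points with 1 pool left out and between 9.92 and 19.7 in the others. The 6 held-out rule genes kept their direction and their call with 2 and with 4 of the other genes required. For members against other cells, the number of called genes was 280, and it was 93 with DESeq2, 636 with edgeR's default dispersion (chosen after seeing the data), 618 without a filter on low counts, 95 without the UMI filter on cells, 558 with at least 5 rule genes, 517 without the tenth of cells with the most UMIs, and 90 to 618 with 1 pool left out. The pool as a replicate block mattered, since 0 genes passed without it. Among named genes, Mcpt8 and Igha turned to 0.13 and 1.70 with at least 3 rule genes.

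For age within members, 147 genes were called, against 49 with DESeq2, 226 without the UMI filter, 61 with at least 5 rule genes, 40 after thinning, 95 without the tenth of cells with the most UMIs and 0 without a filter on low counts (610 unadjusted). With young-B kept, 0 passed with the replicate block and 0 without it, and with at least 3 rule genes, 4 pools and the replicate block 1 passed. Both fits with young-B kept were chosen after seeing the data, and no pool could be left out. Without the UMI filter Jchain, Ighm and Iglc2 turned to -1.24, -0.95 and -0.90, with at least 3 rule genes to -0.64, -1.98 and -0.52, and Ly6c2 turned to -2.46 with at least 5.

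For age by class, 8 genes were called, against 1 with DESeq2, 45 with the default dispersion, 35 without a filter on low counts, 5 without the UMI filter, 2 with at least 5 rule genes, 48 without the tenth of cells with the most UMIs, 0 after thinning (446 unadjusted), 0 with a platform by class term as the replicate block (404 unadjusted), and 0 to 3 with 1 pool left out. Prg2 turned to -0.13 with at least 5 rule genes, Prg3 to -0.93 without the UMI filter and Ccl6 to 6.99 after thinning. With 1 pool left out, Gzmb ranged from -10.44 to 1.80, Ccl6 from -11.21 to 8.57 and Ccl3 from -3.10 to 0.26, each turning without young-A. In that fit the young members were the 8 cells of young-B, and the median term over all genes tested was 3.295. The terms of Gzmb and Ccl3 lay below that median. For age over whole pools, 268 genes were called, against 543 with DESeq2, 172 without a filter on low counts, 0 without the replicate block, and 0 to 258 with 1 pool left out, with 96 without young-B. The cause of these changes was not tested. Where 1 pool was left out of an age, the lone pool was assumed to vary like the others.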
